A study of Mus musculus with 9 samples.

Results

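This report describes the RNA levels of 9 complement genes, C3, C4b, C1s1, C1ra, Cfb, Serping1, Cd55, Cd59a and Masp1, in ST2 cells. They were picked by gene name out of the 54532 genes of the deposited table. The rule uses names and not values, but the names were chosen with earlier results of these data known. ST2 is an established mouse bone marrow stromal line that can be driven towards bone-forming cells, here of wild-type genotype, and the 9 libraries therefore come from 1 line and not from different animals. The libraries fall into 3 groups of 3, with poly-A RNA taken at 72 h after vehicle, recombinant human Wnt3a (rhWnt3a, 50 ng/ml), or rhWnt3a with OSMI. OSMI (20 µM) inhibits OGT, the enzyme that attaches O-GlcNAc to proteins. The titles of the third group name rhWnt3a and OSMI while its treatment label names OSMI alone. The paper's Results also describe rhWnt3a combined with OSMI, while its Methods list OSMI without rhWnt3a. The group is read here by its titles. No group is titled OSMI alone, so an effect of OSMI without rhWnt3a cannot be told apart from that of the combination. The labels do not say whether the 3 libraries of a group came from separate cultures. The paper's heatmap legend for these data calls them biological replicates and does not name cultures. The p-values measure only the spread between these samples, which may be technical if the cultures were not separate.

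Complement is a cascade of plasma and cell-surface proteins that tags and lyses targets. The classical route runs through the proteases C1r and C1s, of which C1s cleaves C4 and C2. The lectin route runs through the MASP proteases and the alternative route through factor B, and all of them meet at the cleavage of C3. Inhibitors such as C1 inhibitor (Serping1), CD55 and CD59 hold the cascade back on host tissue. The liver makes most of the plasma proteins, and stromal cells, fibroblasts and macrophages also make several of them locally.

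The totals were 16135898 to 17583945 counts per library. Vehicle replicate 3, rhWnt3a replicate 2 and rhWnt3a with OSMI replicate 3 lay apart from the other libraries of their groups. Their mean squared log2 distance to those libraries was 0.423, 0.392 and 0.439, while the other two of each group were only 0.117, 0.111 and 0.119 apart. Some results are therefore also given without these 3 libraries. Axin2, a target gene of Wnt signalling, had 4, 14 and 10 counts with vehicle, 355, 296 and 315 with rhWnt3a, and 203, 185 and 297 with OSMI added. Of 10 stromal markers 9 had enough counts to be tested, Eng and Nt5e among them with only 11 to 49 and 14 to 80 counts, and Thy1 had at most 4 counts. The 10 summed to 21000 to 28600 CPM with vehicle, 17500 to 20700 with rhWnt3a and 9230 to 17000 with OSMI added. With rhWnt3a, Cxcl12 (log2 −2.31) and Vcam1 (−0.93) were lower by the call defined below. Not called were Pdgfra (0.21), Eng (0.24), Nt5e (0.21), Col1a1 (−0.53), Col1a2 (−0.15), Pdgfrb (−0.05) and Sparc (−0.35). With OSMI added, Vcam1 (−0.95), Sparc (−1.39) and Nt5e (−2.17) were called lower. Cxcl12 (0.43) pointed up and the other tested markers down, without a call. Col1a1 and Col1a2 weighed most in the sums, with means of 10060 and 9352 CPM with vehicle, 6963 and 8418 with rhWnt3a, and 4060 and 5649 with OSMI added. Hepatocyte markers summed to at most 0.428 CPM (counts scaled to a common library size), with Ttr and Ahsg at 0 in all 9 libraries. For 8 markers of macrophages and other blood cells the sums were 13.4 to 19.9 CPM with vehicle, 7.3 to 11.1 with rhWnt3a and 3.32 to 10.5 with OSMI added. These sums came mainly from Cd68, Cd14 and Lyz2, while Ptprc, which defines blood cells, had at most 2 counts in any library and Adgre1 at most 1. The stromal and the blood-marker sums both moved with the groups, as C3 and C4b did against vehicle, and their part in those results was not tested.

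RefSeq held start-site windows for 5 of the 9 members (C3, C1s1, C1ra, Cd55 and Cd59a; build GRCm38.p6, 250 bases before to 50 after the start). The stretch before C3 is printed because C3 was the most abundant member and moved in every comparison. Capitals mark the only match in its window to any of the 5 motifs searched on both strands, the C/EBP motif TTGCNNAA, which begins at position −45 from the start, chr17:57228174-57228181. The line below gives the 150 bases before the start, chr17:57228137-57228286, minus strand.
C3: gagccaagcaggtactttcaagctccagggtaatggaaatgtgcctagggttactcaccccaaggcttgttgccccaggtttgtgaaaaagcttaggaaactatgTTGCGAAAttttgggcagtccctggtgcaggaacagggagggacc

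The same motif was found once in the window of C1ra and once in 1 of the 2 windows of C1s1, in the reverse orientation, at position −242 from that C1s1 start (chr6:124542594-124542601, minus strand) and at position 16 after the C1ra start (chr6:124512637-124512644, plus strand). The 3 matches are shown with 8 bases on either side so that they can be compared.
C3 motif: aaactatgTTGCGAAAttttgggc
C1s1 motif: agagagaaTTAGGCAAtctcaaaa
C1ra motif: tttgctgtTTATGCAAatgcttca
Of 32851 RefSeq windows of this length, 10.8% held TTGCNNAA. The other motifs were TTCNNNGAA (STAT, in 8.3% of windows), CTTTGAT (TCF/LEF, 3.73%), the NF-kB motif (1.63%) and the interferon response element (3.44%). C1ra also held a STAT match at position 32 after its start and Cd59a an interferon-response match at −187, and the Cd55 window held no match. No match overlapped another. A match of letters is a description of the window and not evidence that a factor binds there.

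Of the 9 members, 6 had enough counts to be tested. Reads per gene were compared with the quasi-likelihood test of edgeR (two-sided, 14004 genes in a fit of all 9 libraries), with p adjusted by Benjamini-Hochberg over these genes. A call needed an adjusted p below 0.05 and a log2 fold change of more than 0.5 in size. Levels below are CPM scaled by TMM, a correction for library composition. In this bulk RNA, fewer cells that express a gene and less of its RNA per cell cannot be told apart.

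With rhWnt3a, 4 of the 6 tested members fell (C3, C4b, C1s1 and C1ra) and none rose. Over all tested genes 8.78% were called in this comparison, 5.86% as lower. The median log2 fold change of the 6 was −0.628, against 0.0371 over all tested genes. With OSMI added to rhWnt3a, C3 alone was called among the 6, as higher, where 4.74% of all tested genes were called and 1.69% as higher. Against vehicle, rhWnt3a with OSMI gave 3 calls, all lower (C3, C4b and Cd59a), where 14.2% of all tested genes were called and 9.34% as lower. The groups did not overlap for 4 members in each comparison, where that held for 26.4% (rhWnt3a against vehicle), 33.7% (OSMI added) and 38.8% (rhWnt3a with OSMI against vehicle) of all tested genes. At an unadjusted p under 0.05 and the same fold threshold, OSMI added gave 2 members, C3 and Cd59a, where 16.2% of all tested genes passed. The comparison of rhWnt3a with OSMI against vehicle shares its libraries with the other two. All 6 tested members had at least 88 counts in every library.

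**Figure D1:**
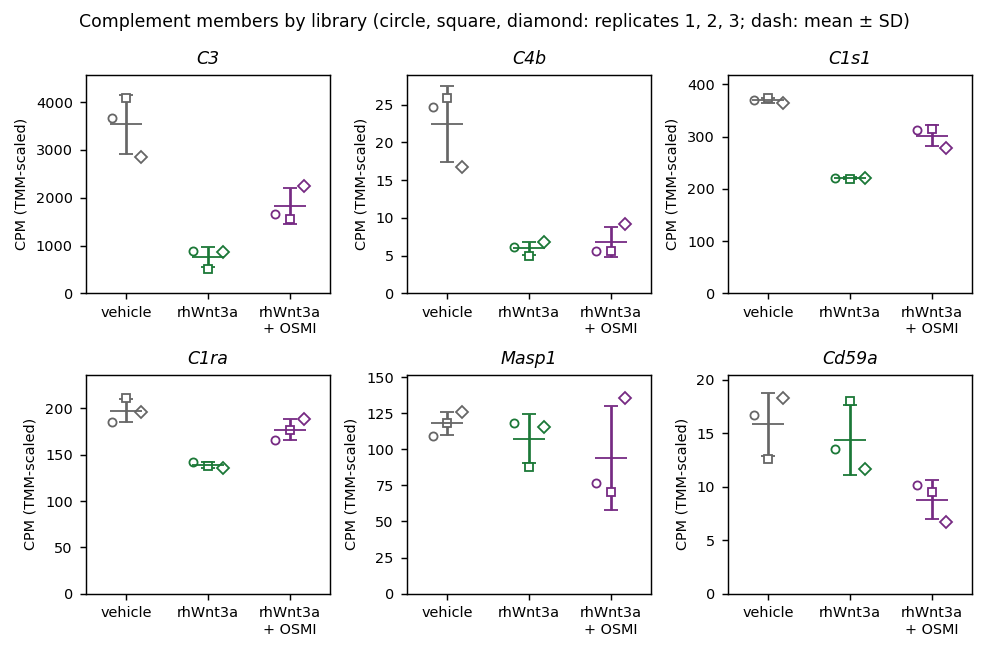
Levels of the 6 tested members in TMM-scaled CPM (linear axes from 0) by group, with each point a library and the dash and bars the mean ± SD of 3. The C3 libraries with OSMI (1550 to 2248 CPM) lie between the other groups, those of C4b (5.623 to 9.15 CPM) overlap rhWnt3a, and Masp1 overlaps between all groups.

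C3 (ENSMUSG00000024164, chr17:57203970-57228136, minus strand, GRCm38), the protein on which all routes converge, stood at 3658, 4087 and 2856 CPM with vehicle. The levels were 893.3, 509.2 and 875.5 CPM with rhWnt3a, and 1658, 1550 and 2248 CPM with rhWnt3a and OSMI. Every library of a group was separate from every library of the others, with vehicle highest and rhWnt3a lowest. The mean was 3534 ± 625 CPM (SD, n = 3) with vehicle, and rhWnt3a left 21.5% of that level (log2 −2.22, SE 0.265, edgeR adjusted p = 0.000631). The call held in each of the 21 alternative analyses, and the log2 change was −2.17 without the 3 libraries that lay apart. OSMI raised C3 2.39-fold over rhWnt3a (log2 1.26, SE 0.258, edgeR adjusted p = 0.0255), with a 95% interval of 0.68 to 1.84. C3 then remained at 51.5% of vehicle (log2 −0.96, SE 0.256, edgeR adjusted p = 0.0322).

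The rise of C3 with OSMI was near the threshold in edgeR, and its call there was lost when some single libraries were left out. Its adjusted p was 0.0526, 0.0611 and 0.0696 without rhWnt3a replicates 1, 2 and 3, and 0.0635 and 0.0564 without OSMI replicates 1 and 2, with log2 values of 1.06 to 1.41 when any library was left out. It was 0.85 without the 3 libraries that lay apart. DESeq2 gave this rise an adjusted p of 8.86e-05 with all 9 libraries and 0.000244 with the 6 of these groups. The edgeR fit of those 6 gave 0.0526. The difference between rhWnt3a with OSMI and vehicle lost its edgeR call without vehicle replicate 1 (adjusted p = 0.099) or 2 (0.119), or without OSMI replicate 1 (0.121) or 2 (0.124). Its log2 value was −1.31 without the 3 libraries that lay apart.

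C4b (ENSMUSG00000073418, chr17:34728380-34743882, minus strand) encodes C4, which C1s cleaves to build the classical C3 convertase. Its level was 24.67, 25.87 and 16.68 CPM with vehicle. It was 6.083, 5.003 and 6.76 CPM with rhWnt3a and 5.623, 5.624 and 9.15 CPM with rhWnt3a and OSMI. All vehicle libraries lay above all treated ones, while the treated groups overlapped. rhWnt3a left 26.6% of the vehicle level (log2 −1.91, SE 0.252, edgeR adjusted p = 0.00112), and rhWnt3a with OSMI left 30.4% (log2 −1.72, SE 0.249, edgeR adjusted p = 0.00157). Both calls held in all 21 alternative analyses. Between the treated groups the log2 difference was 0.19, with a 95% interval of −0.37 to 0.76 (edgeR adjusted p = 0.666). Without the 3 libraries that lay apart it was −0.20, and rhWnt3a with OSMI against vehicle gave −2.205. Of the 100-base stretches of the longest C4b transcript, 16.5% recur in C4a, so some reads could belong to either copy. C4a itself was low, with 12 to 36 counts per library, and its log2 change with rhWnt3a was −0.17 (edgeR adjusted p = 0.909).

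Per length, the level of C3 over that of C4b was 164, 175 and 190 with vehicle and 163, 113 and 143 with rhWnt3a. With OSMI added the ratio was 326, 305 and 272, so that no library with OSMI overlapped any other. An exact permutation of 3 values against 3 cannot give a p below 0.1, and no p is given for this ratio.

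C1s1 (ENSMUSG00000038521, chr6:124530345-124542359, minus strand) and C1ra (ENSMUSG00000055172, chr6:124512405-124523443, plus strand) encode the proteases C1s and C1r that open the classical route. C1s1 was at 370.7, 374 and 363.8 CPM with vehicle, and at 221.3, 218.6 and 221.5 CPM with rhWnt3a. With OSMI added it was at 312.8, 314.2 and 278.1 CPM. The groups did not overlap in any comparison. The replicates lay close together, with means of 220.5 ± 1.61 CPM (SD, n = 3) for rhWnt3a and 302 ± 20.5 CPM (SD, n = 3) with OSMI added. rhWnt3a left 59.7% of the vehicle level (log2 −0.74, SE 0.117, edgeR adjusted p = 0.003). With OSMI the log2 difference from rhWnt3a was 0.45, with a 95% interval of 0.19 to 0.71. It missed the call both in p (edgeR adjusted p = 0.0567) and in fold, being under 0.5. DESeq2 gave an adjusted p of 8.17e-06 with all 9 libraries and 0.00956 with the 6 of these groups, also under the fold threshold. The edgeR difference was called without OSMI replicate 3 (log2 0.51, adjusted p = 0.0346). Of the exon bases of C1s1, 18.4% lie under Gm16567 on the opposite strand. Gm16567 had no counts, but how reads in the overlap were counted is not given in the sources used here. Of the 100-base stretches of the longest C1s1 transcript, 20% recur in C1s2 or Gm16567.

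C1ra was at 185.8, 210.9 and 196.3 CPM with vehicle, 142, 138.1 and 135.9 CPM with rhWnt3a, and 166.3, 176.9 and 188.1 CPM with rhWnt3a and OSMI. The rhWnt3a libraries were the lowest 3, and the other two groups overlapped. rhWnt3a left 70.2% of the vehicle level (log2 −0.51, SE 0.115, edgeR adjusted p = 0.0207). This call sat just past the fold threshold and was lost without vehicle replicate 1 (adjusted p = 0.0551) or 2 (0.122), and without rhWnt3a replicate 1 (0.103), 2 (0.0555) or 3 (0.107). OSMI against rhWnt3a gave a log2 difference of 0.35, with a 95% interval of 0.10 to 0.61 (edgeR adjusted p = 0.111). DESeq2 gave an adjusted p of 0.018 with all 9 libraries and 0.0962 with the 6 of these groups, with the fold under the threshold. Of the 100-base stretches of the C1ra transcript, 35.9% recur in C1rb or Gm18840. The near copies C1s2 and C1rb gave log2 changes with rhWnt3a of −0.87, which was called (edgeR adjusted p = 0.0343), and −0.53, which was not (edgeR adjusted p = 0.262). The C1s2 call was lost without vehicle replicate 1 (adjusted p = 0.0869) or 2 (0.146) and without rhWnt3a replicate 1 (0.124) or 2 (0.0913).

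Per length, the C1s1 level exceeded that of C1ra 1.69 to 1.90 times with vehicle, 1.48 to 1.55 times with rhWnt3a and 1.41 to 1.79 times with OSMI added. The share of 100-base stretches that recur in other genes differs, at 20% for C1s1 and 35.9% for C1ra. How reads in such parts were counted is not given, so the ratio may in part reflect counting, which was not tested.

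**Figure D2:**
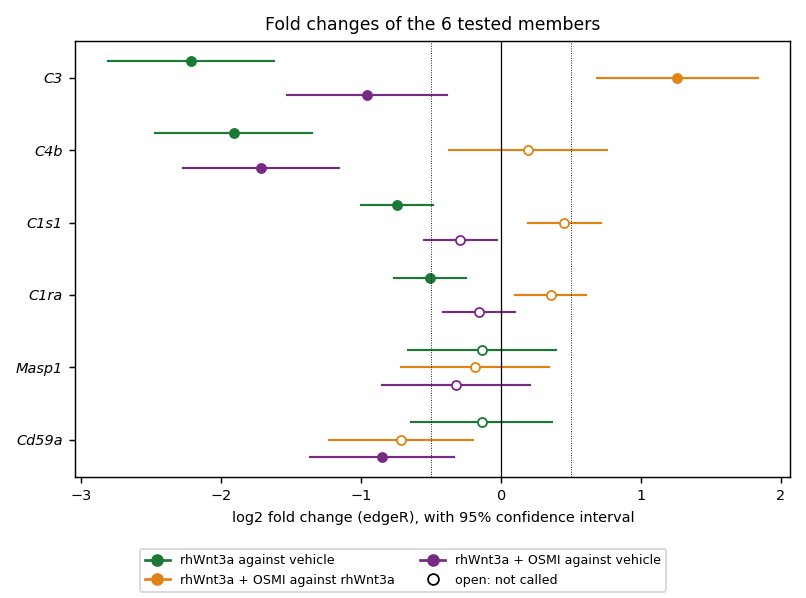
Log2 fold changes (x axis) of the 6 tested members in the 3 comparisons, with bars for the 95% confidence interval of the edgeR fit, filled where called, and dotted lines at a log2 fold change of 0.5 either way. C3 alone is filled in the orange comparison of OSMI added to rhWnt3a, at 1.26, while C4b lies at 0.19.

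Masp1 (ENSMUSG00000022887, chr16:23449417-23520815, minus strand) encodes proteases of the lectin route, MASP-1 and by alternative splicing MASP-3, and gene counts do not separate the forms. The level was 109.5, 118.2 and 125.9 CPM with vehicle, 118.4, 87.83 and 115.5 CPM with rhWnt3a, and 76.91, 70.13 and 135.3 CPM with rhWnt3a and OSMI. Each group overlapped the others, vehicle and rhWnt3a included. OSMI replicate 3 was the highest of all 9 libraries and the other OSMI libraries were the lowest. No comparison was called, with log2 differences of −0.14 for rhWnt3a against vehicle (edgeR adjusted p = 0.847), −0.19 for OSMI added to rhWnt3a (0.653) and −0.33 for OSMI with rhWnt3a against vehicle (0.387). Without OSMI replicate 3 the last was called, at −0.68 (adjusted p = 0.0215). Without the 3 libraries that lay apart, both differences with OSMI were −0.67. The outcome for Masp1 therefore depends on which libraries are kept.

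Cd59a (ENSMUSG00000032679, chr2:104095801-104115354, plus strand), a lipid-anchored inhibitor of the membrane attack complex, was at 16.73, 12.55 and 18.27 CPM with vehicle and at 13.51, 18.02 and 11.67 CPM with rhWnt3a. With OSMI added it was at 10.16, 9.469 and 6.702 CPM, below every other library. rhWnt3a alone gave a log2 difference of −0.14 (edgeR adjusted p = 0.835). rhWnt3a with OSMI lowered Cd59a against vehicle by log2 −0.85 (SE 0.231, edgeR adjusted p = 0.0335). This call was lost without vehicle replicate 1 (adjusted p = 0.0978) or 3 (0.0916), without rhWnt3a replicate 1 (0.0633), and without OSMI replicate 1 (0.0576), 2 (0.075) or 3 (0.0793). Against rhWnt3a the log2 difference was −0.71 and was not called by edgeR (adjusted p = 0.109), while DESeq2 gave an adjusted p of 0.045 with all 9 libraries and 0.0752 with the 6 of these groups. The difference was −0.36 without the 3 libraries that lay apart. Cd59b, the near copy, had 1 count in 1 library.

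The remaining members were too low to test. Cd55 (ENSMUSG00000026399, chr1:130439027-130462744, minus strand), which speeds the decay of C3 convertases, had 3, 8 and 5 counts with vehicle, 1 count in each rhWnt3a library, and 4, 0 and 4 counts with OSMI added. When the filter was lifted, the edgeR adjusted p of rhWnt3a against vehicle was 0.328. Cfb (ENSMUSG00000090231, chr17:34856374-34862518, minus strand), the protease of the alternative route, had 4, 4 and 1 counts with vehicle, 0, 2 and 0 with rhWnt3a, and 1, 0 and 2 with OSMI added. Of the exon bases of Cfb, 79.5% are shared on the same strand with the annotated gene Gm20547, which had no counts, and how reads in the shared part were counted is not given in the sources used here. Serping1 (ENSMUSG00000023224, chr2:84765387-84775444, minus strand), which encodes C1 inhibitor, had 0 counts in all 9 libraries although no other annotated gene overlaps its exons. Such a 0 allows up to 3 counts per library by counting error alone.

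Per length, the order of the members was C3, C1s1, C1ra, Masp1, Cd59a and C4b in each group by the mean, as CPM per kilobase of exon. The sequence that C1s1, C1ra and C4b share with other genes may affect their levels, which was not tested. With vehicle the means were 687, 118, 66.3, 11.99, 8.75 and 3.94. With rhWnt3a they were 148, 70.5, 46.5, 10.9, 7.95 and 1.05, and Masp1 and Cd59a overlapped between 8.93 and 9.95. With OSMI added they were 354, 96.4, 59.4, 9.57, 4.85 and 1.19. Among 22046 protein-coding genes C3 ranked between 26 and 44 with vehicle, between 163 and 410 with rhWnt3a, and between 25 and 62 with OSMI added. The last ranks overlap those with vehicle although mean C3 per kilobase was 354 against 687.

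Other genes of the cascade were read from a list of 47, of which 14 could be tested. With rhWnt3a, 5 of the 14 were called, with Cd93 higher and C1s2, C1rl, Colec10 and Clu lower. Of these, Cd93 and Colec10 had enough counts to be tested only through the group where they were high. OSMI added to rhWnt3a gave 1 call, Itgb2 lower, and rhWnt3a with OSMI against vehicle gave 3, with Colec10, Clu and Itgb2 lower. Over all tested genes 2.92% were called higher and 5.86% lower with rhWnt3a, 3.05% lower with OSMI added, and 4.84% higher and 9.34% lower with both against vehicle.

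Clu encodes clusterin, an inhibitor of the terminal complex with other roles as a chaperone. It was at 38.54, 40.2 and 53.89 CPM with vehicle, 1.399, 2.615 and 1.974 CPM with rhWnt3a, and 3.567, 5.108 and 2.681 CPM with OSMI added. The fall with rhWnt3a was log2 −4.46 (SE 0.3, edgeR adjusted p = 3.16e-05), and OSMI added to rhWnt3a gave 0.92 without a call (edgeR adjusted p = 0.111). This rise of Clu was called in 4 of the 21 alternative analyses, with the same sign in all 21, but in no fit with 1 library left out. Colec10, a lectin that starts the lectin route, fell from 26, 27 and 61 counts to 2, 5 and 10 with rhWnt3a (log2 −2.73, edgeR adjusted p = 0.017) and to 2, 0 and 2 with OSMI added (log2 −4.73 against vehicle, edgeR adjusted p = 0.00224). The Colec10 call with rhWnt3a was lost without rhWnt3a replicate 1 (adjusted p = 0.0756) or 2 (0.0531). C1rl, a C1r-like protease, fell with rhWnt3a by log2 −0.63 (edgeR adjusted p = 0.037), a call lost without vehicle replicate 1 (0.148) or 2 (0.154), rhWnt3a replicate 1 (0.117), 2 (0.118) or 3 (0.0914), or OSMI replicate 1 (0.0683) or 2 (0.0512). Cd93, a receptor on phagocytes and endothelium with 3 to 6 counts per vehicle library, rose with rhWnt3a (log2 2.29, edgeR adjusted p = 0.00878). Cd93 had enough counts to be tested only through its rhWnt3a libraries (27, 17 and 22 counts). Colec10 had enough only through its vehicle libraries. Each was thus tested because of the group where it was high, which limits these calls. Itgb2, the shared chain of complement receptors 3 and 4, fell with OSMI added (log2 −0.97, edgeR adjusted p = 0.0151), a call lost without rhWnt3a replicate 1 (0.0616) or 3 (0.07) or OSMI replicate 1 (0.0856) or 2 (0.084). Itgam and Itgax, the other chains of these receptors, had 0 and at most 1 count in any library.

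Cd46 and Cr1l, which limit C3 on membranes, gave log2 differences of 0.11 and 0.34 with rhWnt3a, and the properdin gene Cfp 0.39, none called. Neither were C1rb, C4a, C8g, C1qbp and Colec12. The terminal genes, the C1q and mannose-binding lectin genes and the anaphylatoxin receptors had at most 5 counts in any library, apart from C8g.

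**Figure D3:**
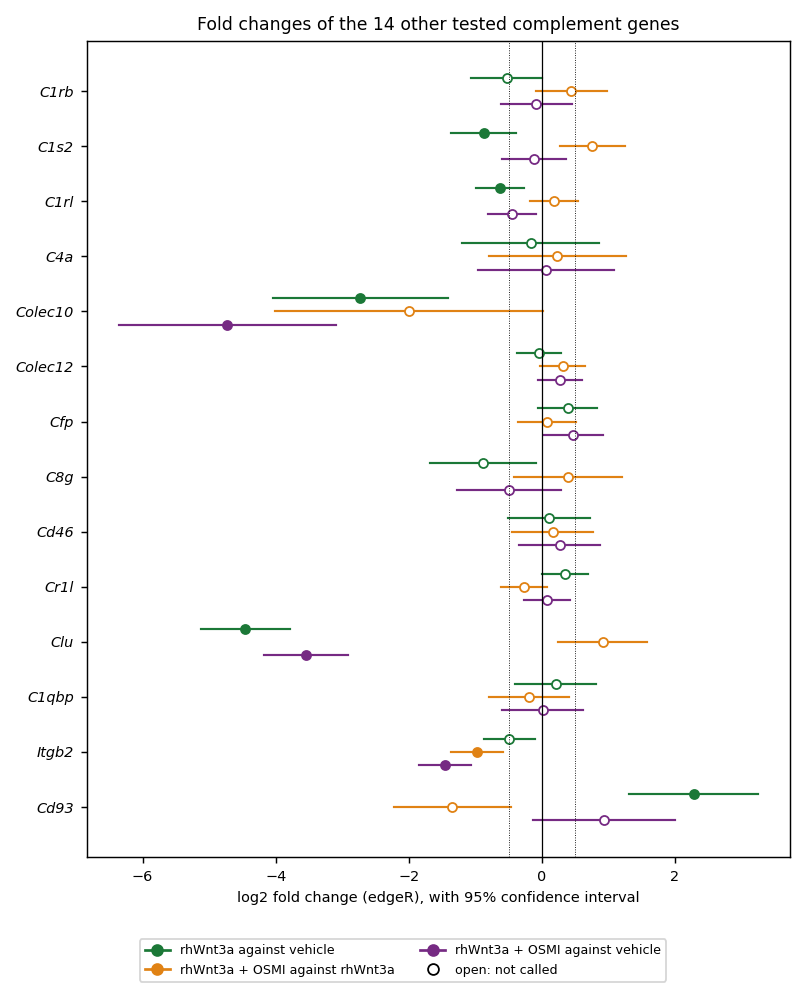
Log2 fold changes (x axis) with 95% confidence intervals from the edgeR fit for the 14 other complement genes that could be tested, in the 3 comparisons, filled where called. Cd93 lies at 2.29 and Clu at −4.46 for rhWnt3a against vehicle, the highest and lowest of these genes in that comparison.

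**Figure D4:**
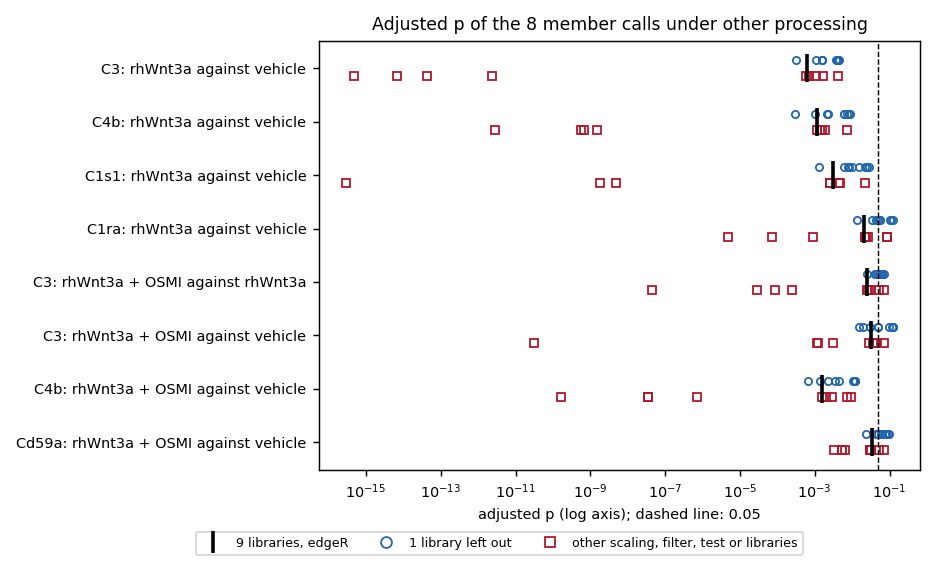
Adjusted p (log axis) of the 8 member calls in the main edgeR analysis (bar), with 1 library left out (circles) and under other scalings, filters, tests and library choices (squares), with a dashed line at 0.05. C3 and C4b with rhWnt3a stay left of the line throughout. C1ra with rhWnt3a, C3 in both comparisons with OSMI, and Cd59a with rhWnt3a and OSMI against vehicle cross it.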

How the data were processed

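RNA-seq of 9 ST2 libraries was analysed from the table that the authors deposited, which gives read counts per gene without normalization. The submitters' processing notes name CASAVA, fastp, HISAT2 2.0.5, featureCounts 1.5.0-p3 and mm10, and the strand setting is not given in the sources used here. The deposited FPKM values were used only to check that they equal counts over gene length and a library total, and the authors' own fold changes and p-values in the table were not used. Gene coordinates follow GRCm38 with GENCODE M21.

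Genes were filtered with filterByExpr (minimum count 10, minimum total 15), scaled by TMM and fitted with edgeR 4.0.16 in R 4.3.3 (glmQLFit, glmQLFTest, 9 libraries, no covariates). DESeq2 1.42.0 was an alternative. Calls required an adjusted p below 0.05 together with a log2 fold change of more than 0.5 in size. The scripts were tested on simulated data. Totals per library of 16135898 to 17583945 counts set the precision, and the limit given for a count of 0 covers counting error only. Exact 100-base stretches of each member's longest transcript were looked up in all other GENCODE M21 transcripts, and motifs in RefSeq start-site windows (GRCm38.p6). Alternatives were another scaling, filter, fold threshold and test, a replicate block, fits of 6 libraries, and each library left out. The 9 members and all gene lists were chosen with earlier results of these data known.

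Named were all members, complement genes called in any comparison or passing the filter in the lectin, alternative or regulator roles, inflammatory genes called, near copies of members, and for each tested member the gene of most similar profile (3 for C3). Some genes of these lists are not reported here.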

Additional observations from a re-analysis of the deposited data

How the results depend on the processing

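Of 21 alternative analyses none reversed a direction among called values. With rhWnt3a against vehicle, 4 members and 1230 genes were called. The members fell to 2 at a log2 fold change beyond 1 and to 3 to 4 with a library left out, and the genes numbered 809 with the replicate block, 2155 without adjustment of p (at the same fold threshold), 796 beyond a log2 fold change of 1, 2557 without the 3 libraries that lay apart, and 716 to 1506 with a library left out. With OSMI added to rhWnt3a, 1 member and 664 genes were called by edgeR. Members numbered 2 without the filter, by DESeq2 with 9 libraries, without adjustment and without the 3 libraries, 0 in the fit of 6 libraries and with the replicate block, and 0 to 2 with a library left out. Genes numbered 1481 without the filter, 1289 by DESeq2 with 9 libraries and 1065 with 6, 345 in the edgeR fit of 6, 233 with the replicate block, 2271 without adjustment, 380 beyond a log2 fold change of 1, 1789 without the 3 libraries, and 203 to 764 with a library left out. For rhWnt3a with OSMI against vehicle, 3 members and 1986 genes were called. Members numbered 1 with the replicate block and beyond a log2 fold change of 1, and 1 to 3 with a library left out, and genes 1297 with the replicate block, 3186 without adjustment, 1118 beyond a log2 fold change of 1, 3351 without the 3 libraries, and 1218 to 2328 with a library left out. The 3 libraries were set aside for their spacing, so p-values without them are too small. Replicate numbers share no stated culture, and same-numbered libraries deviated with correlations of −0.49 to 0.44, so the pairing is by number only, and in each comparison some library did not correlate best with its own number. With the replicate block the calls of C1ra with rhWnt3a (adjusted p = 0.0832), of C3 in both comparisons with OSMI (0.0727 and 0.0691) and of Cd59a against vehicle (0.0731) were lost, and no other member call was. The causes of these shifts were not tested. Cd55, Cfb and Serping1 had too few counts to test.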

Other observations

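Acute-phase and inflammatory genes, from a list of 28 of which 24 were tested, are given as values because complement genes are often measured beside them. With rhWnt3a, 10 were called, 4 higher (Lif, Il6ra, Socs3 and Osmr) and 6 lower (Lcn2, Hp, Il1r1, Nfkb2, Relb and Nfkbia), where 8.78% of all tested genes were called. Of these, the calls of Il6ra, Osmr, Relb and Nfkbia were each lost without rhWnt3a replicate 1, at adjusted p of 0.0893, 0.0816, 0.134 and 0.11, and without rhWnt3a replicate 3, at 0.0988, 0.107, 0.0889 and 0.0931. Il6ra was also lost without vehicle replicate 1 (0.0927), 2 (0.0819) or 3 (0.0641), Osmr without vehicle replicate 1 (0.0758) or 2 (0.0832), Nfkbia without vehicle replicate 2 (0.0702), and Relb without rhWnt3a replicate 2 (0.0545) or, by its fold alone, vehicle replicate 3. Lcn2, which encodes the iron-siderophore binder lipocalin 2, was at 73.35, 87.99 and 211.2 CPM with vehicle, 5.84, 6.651 and 7.06 CPM with rhWnt3a, and 14.69, 14.18 and 5.245 CPM with OSMI added. The log2 change with rhWnt3a was −4.25 (edgeR adjusted p = 0.000552). Hp, the gene of haptoglobin, gave −2.65 with rhWnt3a (edgeR adjusted p = 0.000101) and a difference of −0.80 with OSMI added that was not called (edgeR adjusted p = 0.0698). Nfkb2, an NF-kB subunit gene, was lower with rhWnt3a (log2 −0.73, edgeR adjusted p = 0.0127) and higher with OSMI added (log2 0.81, edgeR adjusted p = 0.0162). The first call was lost without vehicle replicate 2 (0.0552) or rhWnt3a replicate 1 (0.0645) or 3 (0.0576), and the second without rhWnt3a replicate 1 (0.0567), 2 (0.0637) or 3 (0.0705) or OSMI replicate 1 (0.0559). Socs3 and Lif, called higher with rhWnt3a, were called lower with OSMI added, at −0.85 and −0.93. The Socs3 call was lost without rhWnt3a replicate 2 (0.0511) or 3 (0.0575) or OSMI replicate 1 (0.0757) or 2 (0.0752), and the Lif call without vehicle replicate 2 (0.0646), rhWnt3a replicate 1 (0.0796), 2 (0.0751) or 3 (0.116), or OSMI replicate 1 (0.111) or 2 (0.12). OSMI added to rhWnt3a gave 3 calls, Socs3, Lif and Nfkb2, where 4.74% of all tested genes were called. Against vehicle, rhWnt3a with OSMI gave 7 calls, Cp and Lif higher and Lcn2, Hp, Il6, Il1r1 and Nfkbia lower, where 14.2% of all tested genes were called. There the Il6 call was lost without OSMI replicate 1 (0.0581) or 2 (0.0579). Il6 had enough counts to be tested only through its vehicle libraries (30, 20 and 83 counts), where it was high.

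By the root mean square difference of centred log2 CPM over the 9 libraries, the genes most like C3 were Sorbs2 (0.15), H2-K2 (0.189) and Peg10 (0.218). The nearest gene was Wwc1 for C4b (0.0911), Fermt2 for C1s1 (0.0948), Tmem170 for C1ra (0.0594), Hspa12b for Masp1 (0.107) and Cd302 for Cd59a (0.0979). H2-K2 was at under 1 CPM in each group mean.

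OGT, the target of OSMI, was expressed in all groups, with Ogt at 459.7, 500.6 and 360.1 CPM with vehicle, 676.7, 514.6 and 619.5 CPM with rhWnt3a, and 625.2, 667.4 and 763 CPM with OSMI added. The last was called against vehicle (log2 0.64, edgeR adjusted p = 0.0348), a call lost without vehicle replicate 1 (0.0824) or 3 (0.0842), rhWnt3a replicate 3 (0.0609), or OSMI replicate 1 (0.0562), 2 (0.0722) or 3 (0.0672). Mgea5, which encodes the O-GlcNAc-removing enzyme, was at 244.4 to 270.4 CPM with OSMI added and at 114.9 to 169 CPM with vehicle (log2 0.90, edgeR adjusted p = 0.00356).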
